A study of Mus musculus with 35 samples.

Results

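Genes that supply glucose and lactate to the germ cells of the mouse testis were followed across 2 ages, 3 Akt1 genotypes and exposure to PTU. They are the 10 genes Slc2a1, Slc2a3, Slc16a1, Bsg, Emb, Ldha and Pgk1, which are the transporters, their partner proteins and the somatic enzyme isoforms, and Ldhc, Pgk2 and Gapdhs, which are the germ cell isoforms. They were chosen by symbol, as the probe sets annotated to those names, out of 19938 genes with a probe set of their own at postnatal day 15 and 18194 at day 25. All 10 were measured at both ages, by 12 probe sets at day 15 and 21 at day 25. RNA came from whole testes of male C57BL6 mice, and every array came from a mouse of its own, per the design text. The groups were Akt1 homozygous mutant (Akt1-/-), heterozygous (Akt1+/-) and wild type (Akt1+/+) mice, each PTU-exposed or unexposed, killed at day 15 or day 25. PTU is 6-N-propylthiouracil, a goitrogen, which blocks the synthesis of thyroid hormone and was given neonatally. The sources used here do not give its dose or the days of dosing. Each group had 3 arrays. The exposed homozygous group of day 25 had 2, because the authors left out a chip of low quality. The ages were measured on different Affymetrix array types (18 arrays at day 15 and 17 at day 25), so each age was tested only within itself.

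In the seminiferous tubule, Sertoli cells take up glucose, break it down to lactate and hand the lactate to the germ cells behind the blood-testis barrier. Spermatocytes and spermatids burn lactate in preference to glucose, and they swap several enzymes of glycolysis for isoforms of their own. Pgk1 lies on the X chromosome, which is silenced in spermatocytes, and the autosomal copy Pgk2 is made in its place. Ldhc appears in pachytene spermatocytes, and Gapdhs is made in spermatids and serves the glycolysis of the sperm tail. Thyroid hormone helps to end the proliferation of Sertoli cells, and Akt1 is a kinase that acts downstream of insulin and growth factor receptors.

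The promoters of the isoform pairs are shown because the germ cell isoforms carried some of the largest differences described here while the somatic partner Pgk1 had smaller ones. This contrast did not hold for every gene shown. Ldha had a log2 difference of -1.33 with PTU in wild type testes at day 15. Gapdhs passed in no comparison of that age, but its values there were near the floor, where a fall could hardly be read. Each line gives the 250 bases before the first annotated start of the gene, from RefSeq on GRCm38.p6, 5′ to 3′ on the strand of the gene. Capitals mark TGACG (the core of the cAMP response element), AACNGT (a MYB core) and GGGCGG (a GC box), on either strand.
Ldhc (chr7:46861013-46861262, plus strand): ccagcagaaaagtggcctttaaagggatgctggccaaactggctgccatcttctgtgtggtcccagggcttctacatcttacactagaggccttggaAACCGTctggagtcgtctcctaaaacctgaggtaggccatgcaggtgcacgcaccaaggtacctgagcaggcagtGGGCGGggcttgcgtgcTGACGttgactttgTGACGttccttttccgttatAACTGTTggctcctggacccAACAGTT
Ldha (chr7:46845554-46845803, plus strand): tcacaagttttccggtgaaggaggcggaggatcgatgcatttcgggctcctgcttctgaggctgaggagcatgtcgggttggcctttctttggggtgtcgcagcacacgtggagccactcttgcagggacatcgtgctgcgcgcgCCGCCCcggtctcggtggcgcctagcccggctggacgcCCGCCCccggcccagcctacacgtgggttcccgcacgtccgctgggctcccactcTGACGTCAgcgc
Pgk2 (chr17:40208610-40208859, minus strand): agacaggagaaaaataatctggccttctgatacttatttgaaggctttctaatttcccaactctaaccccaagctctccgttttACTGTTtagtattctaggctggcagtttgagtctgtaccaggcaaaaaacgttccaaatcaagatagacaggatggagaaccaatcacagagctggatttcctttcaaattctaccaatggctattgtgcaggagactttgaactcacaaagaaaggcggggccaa
Pgk1 (chrX:106186850-106187099, plus strand): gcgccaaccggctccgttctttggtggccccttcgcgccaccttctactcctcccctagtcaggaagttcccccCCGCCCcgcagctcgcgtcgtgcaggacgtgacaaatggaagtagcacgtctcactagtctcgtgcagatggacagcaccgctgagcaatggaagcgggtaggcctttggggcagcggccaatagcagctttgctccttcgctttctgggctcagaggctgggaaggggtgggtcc
Gapdhs (chr7:30743682-30743931, minus strand): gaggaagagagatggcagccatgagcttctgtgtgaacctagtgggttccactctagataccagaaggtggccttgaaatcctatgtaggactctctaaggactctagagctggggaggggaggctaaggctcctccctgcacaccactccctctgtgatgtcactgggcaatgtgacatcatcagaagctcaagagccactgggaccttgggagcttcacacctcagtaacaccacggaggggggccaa
Windows were found for 8 of the 10 genes, namely these 5, Slc2a1, Slc16a1 and Emb. The Ldhc window held TGACG at 2 places, 61 to 57 and 47 to 43 bases before the start. It held AACNGT at 153 to 148, and on both strands, overlapping by all but 1 base, at 27 to 21 and again at 7 to 1. GGGCGG lay once at 78 to 73. The window of Ldha, its neighbour on chromosome 7, held TGACG on both strands, overlapping, at 12 to 5 bases before the start, GGGCGG at 105 to 100 and 67 to 62, and no AACNGT. Pgk2 held AACNGT once, at 166 to 161, and no GGGCGG, while Pgk1 held GGGCGG once, at 176 to 171, and no AACNGT. The Gapdhs window held none of the 3. Of 32851 promoter windows of the same length, 17.8% held TGACG, 22.3% held AACNGT and 32.7% held GGGCGG. Of the other 2 motifs searched, the nuclear receptor motif AGGTCA was in none of the members' windows and in 14.0% of all windows. The hypoxia response core ACGTG was in the windows of Slc2a1, Slc16a1, Ldha and Pgk1 and in 16.6% of all windows. These are matches of letters only.

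Values are log2 intensities. Words such as rose, fell, higher and lower are kept for genes with an adjusted p under 0.05 in limma's test over all genes of that age, unless array values are being described. Differences are log2 differences ± standard error. Probe sets differ in brightness, so a level is compared only between arrays and never between genes. Some arrays stood apart. At day 25 both exposed homozygous arrays held the epididymal transcript Spink8 at 12.92 and 12.75, against 5.74 to 6.25 in unexposed homozygous arrays, and the mean of 2 epididymis markers was 12.26 and 12.42 there. Spink8 was also above 7 in exposed heterozygous array 2 (10.07) and exposed wild type array 3 (8.72) at day 25. At day 15 it was above 7 in exposed homozygous array 2 (8.74) and in unexposed wild type arrays 2 (9.38) and 3 (7.91). Below that limit, Spink8 read 6.73 in unexposed homozygous array 3 and 6.54 in exposed heterozygous array 2, against 4.81 to 5.43 in the rest. Both arrays stay in the fits without arrays with Spink8 above 7. The fat transcript Car3 read 8.57 and 6.87 in unexposed homozygous arrays 2 and 3, against 5.13 to 6.14 in all other arrays of day 15. Car3 was uneven at day 25 too. For wild type mice it read 6.64, 9.22 and 10.76 with PTU, against 4.19 to 4.68 without. Heterozygous mice had 4.14, 8.32 and 5.23 with PTU, against 4.31, 6.10 and 7.45 without. Homozygous mice had 9.12 and 7.53 with PTU, against 3.88 to 4.58 without. The part of fat tissue in the members' results was not tested. The mean of 13 Sertoli cell markers lay between 9.35 and 10.29 on every array of either age. Akt1 itself was read at 9.01 to 9.74 in exposed homozygous against 9.92 to 10.09 in exposed wild type arrays at day 15, and at 9.04 to 9.40 against 9.34 to 9.71 in the unexposed. At day 25 its brightest probe set read 9.45 and 9.53 in exposed homozygous arrays and 9.44 to 9.53 in exposed wild type arrays, while a dimmer one read 8.56 and 8.01 against 8.93 to 9.33. The sources used here do not give where these probes lie relative to the mutated part of the gene, so they do not check the labels.

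At day 15, 6 of the 10 genes fell with PTU in wild type testes, and 6 were lower in homozygous than in wild type testes when the mice were unexposed. With PTU in wild type, Slc2a3, Bsg, Emb, Ldha, Ldhc and Pgk2 fell and 0 of the 10 rose, where 15.3% of the 16710 genes tested were called, 6.53% higher and 8.75% lower. The exposed and unexposed arrays of all 6 did not overlap, which held for 45.1% of all genes. In unexposed mice 7 of the 10 differed between homozygous and wild type testes, 6 lower and Slc2a1 higher, against 28.9% of all genes (14.6% higher, 14.2% lower). The arrays of all 7 did not overlap, against 48.9% of all genes. These 2 comparisons share the unexposed wild type arrays, so their directions are not independent.

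In heterozygous testes PTU lowered 1 of the 10, Emb, where 0.569% of all genes were called (0.377% lower), and 3 had arrays without overlap (15.2% of all genes). In homozygous testes PTU lowered Slc2a1, Slc16a1 and Emb, where 4.96% of all genes were called (4.37% lower), and 4 had arrays without overlap (20.4%). Averaged over the genotypes, Bsg, Emb, Ldha and Pgk2 were lower with PTU, where 12.0% of all genes were called (3.88% higher, 8.09% lower). Unexposed heterozygous testes had lower Ldha and Pgk2 than wild type, where 3.95% of all genes were called (0.718% higher, 3.23% lower), and 6 of the 10 had arrays without overlap (33.0%). Among exposed mice, none of the 10 passed between homozygous and wild type testes. There limma called 0 genes (0%), although 4266 genes, 5 of the 10 among them, had an unadjusted p under 0.05, and 4 of the 10 had arrays without overlap (25.3%). The interaction, which tests whether the PTU effect differed between homozygous and wild type mice, passed for 6 of the 10, where 16.4% of all genes did (8.23% higher, 8.13% lower).

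**Figure D1:**
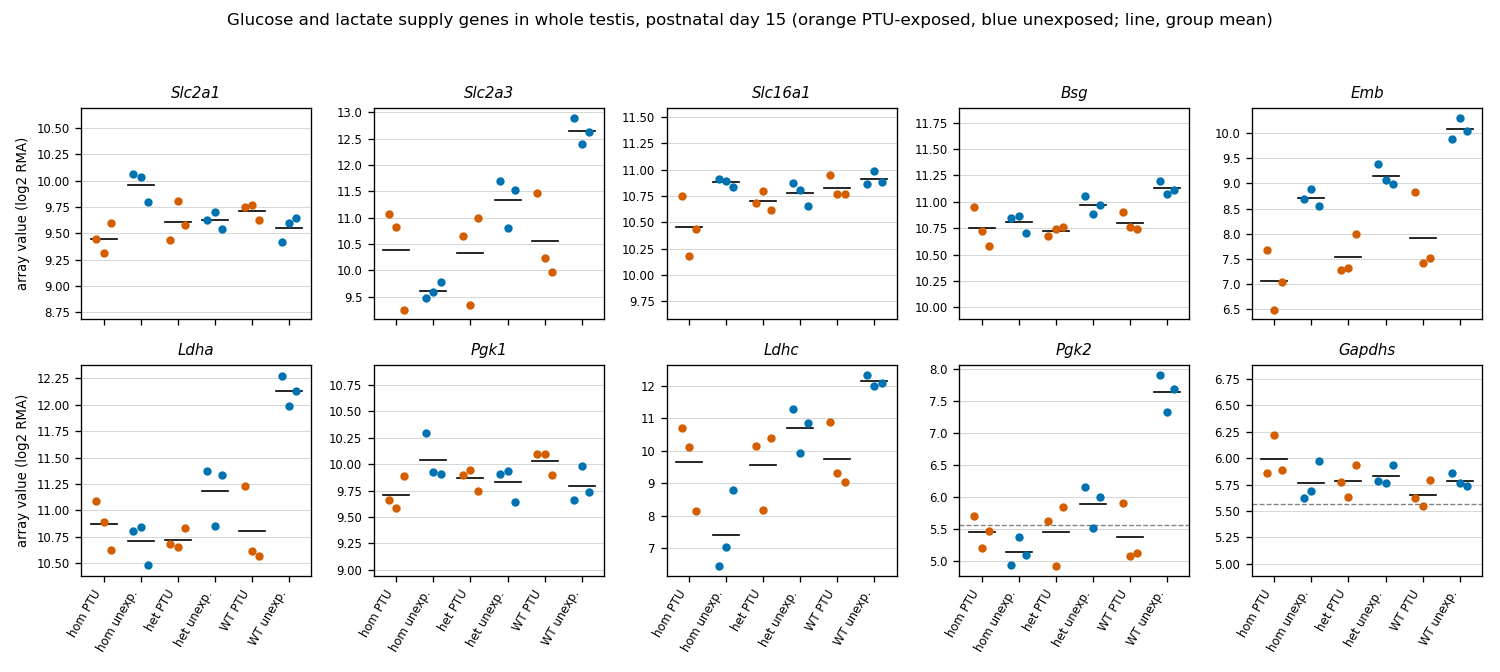
Array values (log2 RMA, y axis, a separate scale per gene) of the 10 genes at postnatal day 15 in each of the 6 groups (x axis), with PTU-exposed arrays in orange and unexposed ones in blue, a point per array and a line at the group mean. The dashed line is the filter at 5.56. The 3 unexposed wild type arrays are the highest of all for Slc2a3, Bsg, Emb, Ldha, Ldhc and Pgk2.

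Emb, embigin, is a partner protein that brings monocarboxylate transporters to the cell surface, and it was the member that PTU lowered in all 3 genotypes at day 15. It read 7.67, 6.48 and 7.03 in exposed homozygous testes, against 8.68, 8.88 and 8.54 in unexposed homozygous testes. It read 7.27, 7.31 and 7.99 in exposed heterozygous testes, against 9.40, 9.07 and 9.0 in unexposed ones. In wild type testes it read 8.83, 7.42 and 7.51 with PTU, against 9.89, 10.31 and 10.05 without. The arrays of exposed and unexposed mice did not overlap in any genotype. The differences were -1.64 ± 0.32 in homozygous (adjusted p = 0.00971), -1.63 ± 0.32 in heterozygous (adjusted p = 0.0243) and -2.16 ± 0.32 in wild type mice (adjusted p = 2.84e-04). Averaged over genotypes the difference was -1.81 ± 0.19 (adjusted p = 3.14e-05), a 3.51-fold fall, and the PTU effect did not differ by genotype past the threshold (0.52 ± 0.45, adjusted p = 0.456). Unexposed homozygous testes also had less Emb than wild type (-1.38 ± 0.32, adjusted p = 0.00391). The heterozygous call was lost without any 1 of 5 of its 6 arrays (adjusted p = 0.0816 to 0.184). The call in homozygous testes was lost without exposed array 2 (adjusted p = 0.0701) or unexposed array 1 (0.0532) or 2 (0.0534).

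Macrophage markers were lower in the same arrays as Emb. The mean of 8 such markers was 7.19 to 7.62 in exposed against 7.68 to 7.83 in unexposed homozygous testes, 7.14 to 7.56 against 8.01 to 8.26 in heterozygous ones and 7.42 to 7.76 against 8.15 to 8.45 in wild type ones. All 8 fell with PTU averaged over genotypes, where 8.09% of all genes did. At day 25 the mean of these markers was 7.68 and 7.80 in exposed against 8.01 to 8.41 in unexposed homozygous testes, while Emb rose there. The part of these markers in the Emb results was not tested, and in a whole organ fewer cells of a type and less RNA per cell cannot be told apart. The 3 genes whose levels over the 18 arrays were most like those of Emb were Dmrtc1b (Pearson r = 0.989), Agmo (0.983) and Hsd3b6 (0.976). Hsd3b6, a steroidogenic enzyme of Leydig cells, itself fell with PTU in wild type testes (-3.18 ± 0.64, adjusted p = 0.00307). The list of 6 Leydig markers holds Hsd3b6 itself, the 1 that fell, while 1 rose. The other markers of the list did not follow it. The mean of the list was 8.08 to 9.04 in exposed against 8.32 to 8.82 in unexposed wild type testes.

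Bsg, basigin, is the widely made partner of the same transporters. It ranged from 10.58 to 10.95 in exposed homozygous testes and from 10.70 to 10.86 in unexposed ones. Wild type arrays were at 10.90, 10.76 and 10.74 with PTU, against 11.19, 11.08 and 11.12 without. The wild type groups did not overlap, but the fall was small (-0.33 ± 0.09, adjusted p = 0.0272), and in unexposed mice the homozygous testes were lower than wild type by about as much (-0.32 ± 0.09, adjusted p = 0.0167). The PTU call in wild type was lost without exposed array 2 or 3, or unexposed array 1 or 3 (adjusted p = 0.0716 to 0.12). The call on genotype was lost without unexposed homozygous array 3 (adjusted p = 0.0642) or wild type array 1 (0.0751).

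Slc2a1 encodes the glucose transporter GLUT1, through which Sertoli cells take up glucose. At day 15 it read 9.44, 9.31 and 9.59 in exposed homozygous testes, against 10.06, 10.03 and 9.79 in unexposed homozygous testes. The wild type arrays were at 9.75, 9.77 and 9.62 with PTU, against 9.41, 9.59 and 9.64 without. Unexposed homozygous arrays 1 and 2 were the highest of the age. PTU lowered it in homozygous testes (-0.51 ± 0.11, adjusted p = 0.0146) and not past the threshold in wild type ones (0.16 ± 0.11, adjusted p = 0.351). The interaction was -0.68 ± 0.16 (adjusted p = 0.00788). In unexposed mice it was higher in homozygous than in wild type testes (0.41 ± 0.11, adjusted p = 0.00998), a call lost without homozygous array 1 (adjusted p = 0.0509) or wild type array 1 (0.0617). The PTU call in homozygous testes was lost without exposed array 2 (adjusted p = 0.0936) or unexposed array 1 (0.0857) or 2 (0.073). Of 13 Sertoli markers 4 fell with PTU in homozygous testes, where the mean of the list was 9.59 to 9.89 in exposed against 10.12 to 10.29 in unexposed testes, and their part in the Slc2a1 and Slc16a1 results was not tested.

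Slc16a1 encodes the monocarboxylate transporter MCT1, which carries lactate and pyruvate across membranes. It was 10.75, 10.18 and 10.43 in exposed homozygous testes, against 10.91, 10.89 and 10.84 in unexposed ones, and between 10.62 and 10.98 in every other array. The fall in homozygous testes was -0.43 ± 0.12 (adjusted p = 0.0415), and 11 of the 18 fits that each left out an array lost it. The PTU difference in wild type testes was -0.08, with a 95% interval from -0.33 to 0.16.

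Slc2a3 encodes GLUT3, a glucose transporter of high affinity that mouse germ cells make. It read 11.07, 10.82 and 9.25 in exposed homozygous testes, against 9.47, 9.58 and 9.77 in unexposed homozygous testes. Heterozygous testes had 10.65, 9.34 and 11.00 with PTU, against 11.71, 10.80 and 11.52 without. For wild type testes the values were 11.46, 10.24 and 9.98 with PTU, against 12.89, 12.40 and 12.63 without. The unexposed wild type arrays were above all others, and the exposed groups spread over more than 1 unit each. PTU lowered it in wild type testes by 4.23-fold (-2.08 ± 0.46, adjusted p = 0.00606). In homozygous testes the difference was 0.77 ± 0.46 (adjusted p = 0.337), and the interaction was 2.85 ± 0.65 (adjusted p = 0.00758). Unexposed homozygous testes had 8.18-fold less than wild type (-3.03 ± 0.46, adjusted p = 1.15e-04).

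Ldha encodes a lactate dehydrogenase subunit, which makes lactate from pyruvate, and is grouped here with the somatic isoforms. In whole testis, its signal from germ cells and from somatic cells cannot be told apart. Ldha read 11.09, 10.89 and 10.62 in exposed homozygous testes, against 10.81, 10.84 and 10.48 in unexposed ones. Heterozygous testes had 10.68, 10.65 and 10.83 with PTU, against 11.37, 10.85 and 11.34 without. Wild type testes had 11.23, 10.61 and 10.57 with PTU, against 12.28, 11.99 and 12.14 without. Every array outside the unexposed wild type group lay below that group. The fall with PTU in wild type was -1.33 ± 0.18 (adjusted p = 1.00e-04), against 0.16 ± 0.18 in homozygous testes (adjusted p = 0.621). The interaction was 1.49 ± 0.25 (adjusted p = 0.00105). In unexposed mice Ldha was lower than in wild type by -1.42 ± 0.18 in homozygous (adjusted p = 1.91e-05) and by -0.95 ± 0.18 in heterozygous testes (adjusted p = 0.00497).

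Pgk1, the X-linked phosphoglycerate kinase of somatic cells, passed in no comparison of 2 groups at day 15. It ranged from 9.58 to 9.89 in exposed and from 9.91 to 10.29 in unexposed homozygous testes, and from 9.90 to 10.10 in exposed and 9.66 to 9.98 in unexposed wild type testes. The homozygous arrays did not overlap, but the difference of -0.33 ± 0.13 did not pass (adjusted p = 0.132). Its interaction did (-0.57 ± 0.18, adjusted p = 0.0371), and leaving out any 1 of 7 arrays lost that call (adjusted p = 0.0591 to 0.11). Its 3 probe sets gave nearly the same values, and 2 of them were equal at the decimals printed, so they are not separate measurements, and signal from near-identical copies of the gene cannot be told apart from its own.

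Ldhc encodes the lactate dehydrogenase subunit of male germ cells, and it spanned the widest range of the 10 at day 15. It read 10.70, 10.12 and 8.14 in exposed homozygous testes, against 6.44, 7.03 and 8.78 in unexposed homozygous testes. Heterozygous testes had 10.16, 8.17 and 10.39 with PTU, against 11.28, 9.95 and 10.86 without. Wild type testes had 10.89, 9.33 and 9.03 with PTU, against 12.34, 12.00 and 12.08 without. Only the unexposed wild type arrays lay close together. Unexposed homozygous testes had 26.4-fold less than wild type (-4.72 ± 0.70, adjusted p = 9.35e-05), and the difference was -5.40 without unexposed homozygous array 3. PTU lowered it in wild type by -2.39 ± 0.70 (adjusted p = 0.0292), a call that was lost without any 1 of 5 of the 6 arrays compared (adjusted p = 0.0584 to 0.129). In homozygous testes the exposed mice read higher by 2.23 ± 0.70, which did not pass (adjusted p = 0.0765) unless exposed homozygous array 3 (0.0291), unexposed homozygous array 3 (0.0231) or exposed heterozygous array 2 (0.0495) was left out, or the arrays were weighted by quality (2.35, adjusted p = 0.0407). The interaction of PTU with the homozygous genotype was 4.62 ± 0.99 (adjusted p = 0.00521), or 5.38 without exposed and 5.30 without unexposed homozygous array 3.

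Pgk2, the phosphoglycerate kinase of meiotic and later germ cells, was near the floor at day 15 outside a single group. It read 5.70, 5.20 and 5.46 in exposed homozygous testes, against 4.93, 5.37 and 5.09 in unexposed ones. Heterozygous testes had 5.62, 4.91 and 5.84 with PTU, against 6.14, 5.52 and 5.99 without. For wild type testes they were 5.91, 5.07 and 5.13 with PTU, against 7.90, 7.32 and 7.68 without. The filter on low values lay at 5.56, and 9 of the 18 arrays were above it, among them all 3 unexposed wild type arrays. PTU lowered Pgk2 in wild type by -2.27 ± 0.25 (adjusted p = 2.36e-05). In unexposed mice it was lower than in wild type by -2.50 ± 0.25 in homozygous (adjusted p = 3.60e-06) and by -1.75 ± 0.25 in heterozygous testes (adjusted p = 6.37e-04). These folds end at values near the filter. Gapdhs, the spermatid form of glyceraldehyde-3-phosphate dehydrogenase, lay between 5.55 and 6.22 in all 18 arrays and passed in no comparison of this age. Its values too were near the filter, where a fall could hardly be read.

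Within each array, the germ cell isoform was set against its somatic partner as a difference of log2 values, with no test. Since probe sets differ in brightness, only changes of this difference between arrays carry information. The name somatic partner is that of the gene list, and the cells that gave its signal were not tested. Ldhc minus Ldha averaged -1.22 ± 1.11 in exposed and -3.29 ± 1.41 in unexposed homozygous testes, -1.15 ± 1.16 in exposed and -0.49 ± 0.41 in unexposed heterozygous testes, and -1.05 ± 0.63 in exposed and 0.01 ± 0.06 in unexposed wild type testes (SD, n = 3 each). In unexposed homozygous testes the 3 values were -4.37, -3.81 and -1.69, so the spread within that group was wide. Pgk2 minus Pgk1 averaged -4.26 ± 0.26 in exposed and -4.91 ± 0.41 in unexposed homozygous testes, and -4.66 ± 0.43 in exposed and -2.16 ± 0.46 in unexposed wild type testes (SD, n = 3 each). Unexposed wild type arrays had the highest value of all for both pairs.

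At day 15 most markers of pachytene spermatocytes fell with PTU in wild type testes, as did Slc2a3, Bsg, Emb, Ldha, Ldhc and Pgk2. Of 11 tested markers, 8 fell there, where 8.75% of all genes did. The mean of the list was 7.77 to 8.77 in exposed against 9.66 to 10.08 in unexposed wild type testes. All 11 were lower in unexposed homozygous than in wild type testes, where 14.2% of all genes were. The mean was 6.84 to 7.64 in unexposed homozygous testes. With PTU in homozygous testes it was 7.35 to 8.53, while Slc2a1, Slc16a1 and Emb fell. The mean of 13 Sertoli markers was 9.87 to 9.96 in exposed against 9.93 to 10.07 in unexposed wild type testes, and 10.12 to 10.29 in unexposed homozygous ones. Spermatogonial markers averaged 9.26 to 9.40 in exposed against 8.92 to 9.04 in unexposed wild type testes. The part of these cell types in the results for single genes was not tested. Over the 18 arrays the genes most like Ldhc were 1700006J14Rik (r = 0.997), Psma8 (0.994) and Spdye4b (0.994), those most like Slc2a3 were Mroh2b (0.990), Acr (0.989) and Sprtn (0.989), and those most like Ldha were 4933414I15Rik (0.983), Mpi (0.981) and Ybx3 (0.977). Pgk2 was most like Cfap44 (0.988), Slc9c1 (0.988) and 1700123L14Rik (0.985). For Slc2a1 the closest gene was Litaf (0.927) and for Slc16a1 it was Acbd5 (0.973).

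The rest of the pathway was read from lists of related genes. Over all genes, 6.53% rose and 8.75% fell with PTU in wild type testes at day 15. Of 11 tested germ cell isoforms of energy metabolism, 6 fell and 0 rose there, with a median of -0.90 against 0.03 over all genes. Among them were the enolase Eno4 (-0.86 ± 0.15, adjusted p = 0.00139), the adenylate kinase Ak7 (-1.46 ± 0.31, adjusted p = 0.00519) and the glycerol kinase Gk2 (-2.62 ± 0.68, adjusted p = 0.0145). In unexposed homozygous against wild type testes 8 of the 11 were lower and 1 higher (median -1.81 against 0.08, with 14.2% of all genes lower and 14.6% higher), with Gk2 at -4.54 ± 0.68 (adjusted p = 9.41e-05). Of 16 tested enzymes of glycolysis listed as somatic, 3 fell and 1 rose with PTU in wild type (median 0.04). The word somatic is that of the list, and the cells that gave these signals were not tested. The falls were the phosphofructokinase Pfkp (-1.13 ± 0.13, adjusted p = 3.93e-05), the phosphoglycerate mutase Pgam2 (-2.83 ± 0.37, adjusted p = 9.58e-05) and the triosephosphate isomerase Tpi1 (-0.37 ± 0.10, adjusted p = 0.0225), and the rise was the aldolase Aldoc (0.58 ± 0.18, adjusted p = 0.0435). Of 13 other carriers, 2 fell and 1 rose (median -0.04). The fructose transporter Slc2a5 fell by 2.16 (adjusted p = 1.14e-04) and the monocarboxylate transporter Slc16a7 fell by 1.51 (adjusted p = 1.42e-04), while Slc16a3, a lactate exporter, rose by 0.59 (adjusted p = 0.00305). Of 5 regulators, Myc (0.46 ± 0.12, adjusted p = 0.0142) and Hif1a (0.43 ± 0.13, adjusted p = 0.0329) rose and 0 fell. In homozygous testes, where 4.37% of all genes fell, PTU lowered 2 of the 16 glycolysis enzymes, the hexokinase Hk2 (-0.62 ± 0.13, adjusted p = 0.0109) and the pyruvate kinase Pkm (-0.37 ± 0.09, adjusted p = 0.023), and 1 of the 13 carriers, Slc2a12 (-1.09 ± 0.17, adjusted p = 0.00728).

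2 of the arrays with Spink8 above 7 were unexposed wild type, so the day 15 results were also read without those arrays, with 1 unexposed wild type array left and its spread taken from the other groups. PTU in wild type then lowered 3 of the 10 genes (4.97% of all genes), Emb (-1.97, adjusted p = 0.02), Ldha (-1.47, adjusted p = 0.00663) and Pgk2 (-2.53, adjusted p = 0.00121), and the differences for Slc2a3 (-2.33, adjusted p = 0.0696), Bsg (-0.39, adjusted p = 0.145) and Ldhc (-2.59, adjusted p = 0.193) no longer passed. In homozygous testes none of the 3 calls was left (0% of all genes called), with Emb at -1.35 (adjusted p = 0.126). In unexposed mice 5 of the 7 genotype differences passed, with Bsg (adjusted p = 0.0913) and Emb (-1.19, adjusted p = 0.0858) lost. Averaged over genotypes, Bsg was lost (adjusted p = 0.0845). In heterozygous against wild type, Ldha was lost (-1.09, adjusted p = 0.071). Of the 6 interactions, Slc2a1, Ldha and Pgk2 passed, with Slc2a3 at 2.89 (adjusted p = 0.0678) and Ldhc at 4.59 (adjusted p = 0.0638).

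**Figure D2:**
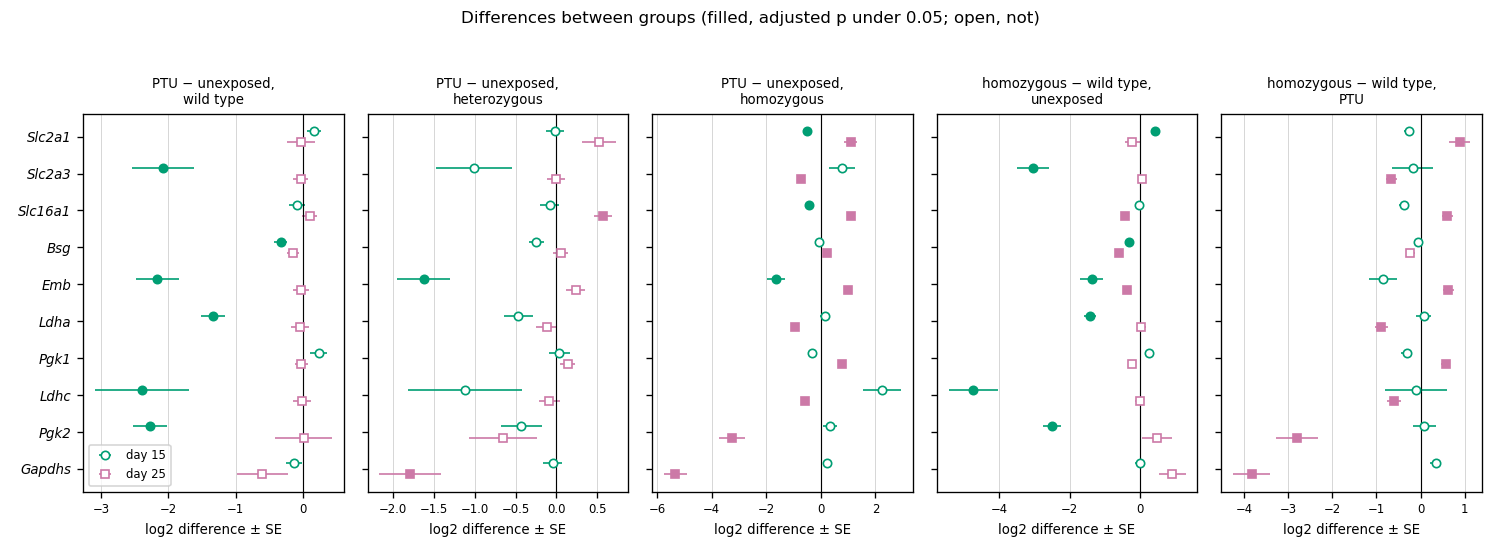
Log2 difference ± SE (x axis, a separate scale per panel) of the 10 genes (y axis) for 5 comparisons, with day 15 as green circles and day 25 as pink squares. Filled symbols passed an adjusted p of 0.05 and open ones did not. At day 25 all 10 are filled for PTU in homozygous testes and none for PTU in wild type.

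At day 25, all 10 genes differed with PTU in homozygous testes and none passed the test in wild type. In homozygous testes Slc2a1, Slc16a1, Bsg, Emb and Pgk1 rose and Slc2a3, Ldha, Ldhc, Pgk2 and Gapdhs fell. Of the 16305 genes tested, 71.2% were called in that comparison (38.4% higher, 32.8% lower), and 75.9% had arrays without overlap, as all 10 did. The exposed arrays there were those with epididymal transcripts. In wild type limma called 0 genes (0%), with 978 genes and 0 of the 10 at an unadjusted p under 0.05, and 1 of the 10, Bsg, had arrays without overlap (20.5%). In heterozygous testes Slc16a1 rose and Gapdhs fell, where 18.7% of all genes were called (11.5% higher, 7.20% lower), and 7 of the 10 had arrays without overlap (40.9%).

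Between genotypes, Slc16a1, Bsg and Emb were lower in homozygous than in wild type testes of unexposed mice, where 12.7% of all genes differed (5.35% higher, 7.32% lower), and 6 of the 10 had arrays without overlap (38.1%). In exposed mice all but Bsg differed, 9 of the 10, where 61.1% of all genes did (32.7% higher, 28.4% lower) and 74.1% had arrays without overlap. Unexposed heterozygous testes differed from wild type at 2 of the 10, Slc16a1 and Gapdhs, where 22.6% of all genes did (8.32% higher, 14.3% lower), and 7 had arrays without overlap (43.6%). PTU averaged over genotypes changed 9, where 63.9% of all genes were called (36.3% higher, 27.6% lower). All 10 interactions passed, where 59.4% of all genes did (33.1% higher, 26.3% lower).

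**Figure D3:**
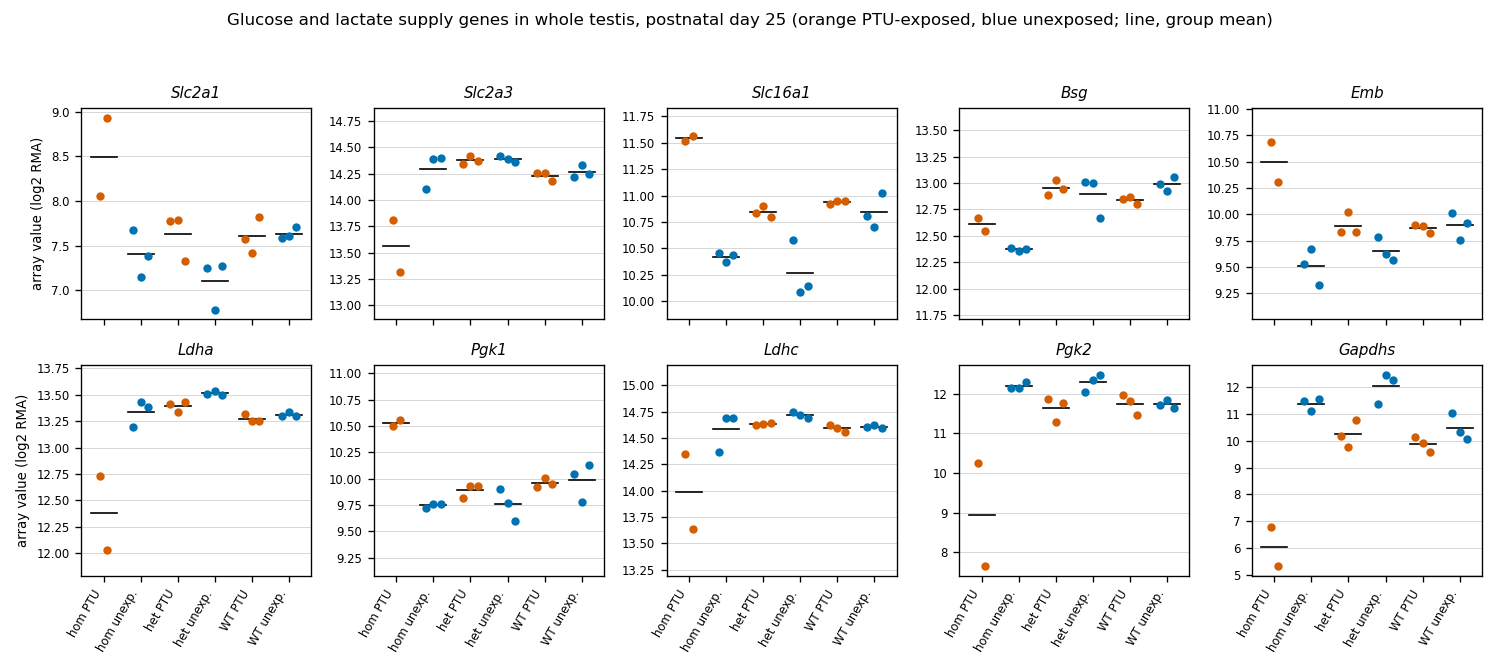
Array values (log2 RMA, y axis, a separate scale per gene) of the 10 genes at postnatal day 25, drawn as for day 15, with 2 arrays in the exposed homozygous group. That group lies outside the range of all other arrays for every gene but Bsg, with Gapdhs at 6.79 and 5.32 against 9.57 or more. For Ldhc the gap is narrow, with its higher array at 14.34 against 14.37 in the lowest unexposed homozygous array.

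Gapdhs had the largest differences of the 10 at day 25. It read 6.79 and 5.32 in exposed homozygous testes, against 11.48, 11.09 and 11.57 in unexposed homozygous testes. Heterozygous testes had 10.17, 9.77 and 10.77 with PTU, against 11.38, 12.45 and 12.26 without. Wild type testes had 10.14, 9.93 and 9.57 with PTU, against 11.05, 10.31 and 10.08 without. Exposed and unexposed arrays did not overlap in homozygous or heterozygous testes and met in wild type ones. The fall was 40.2-fold in homozygous testes (-5.33 ± 0.42, adjusted p = 1.84e-07) and 3.47-fold in heterozygous ones (-1.80 ± 0.38, adjusted p = 0.00657). The homozygous value was -6.06 without exposed array 1 and -4.59 without exposed array 2. In wild type it was -0.60, with a 95% interval from -1.40 to 0.20 (adjusted p = 0.885). Unexposed heterozygous testes had more than wild type (1.55 ± 0.38, adjusted p = 0.0102), a call lost without heterozygous array 2 (adjusted p = 0.0594) or wild type array 3 (0.0581). Without the exposed homozygous arrays the heterozygous PTU effect was the same size (-1.80, adjusted p = 0.00295), and without all arrays with Spink8 above 7 it was -1.56 (adjusted p = 0.0195).

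Round spermatid markers ran alongside Gapdhs. The mean of 9 such markers was 6.56 and 7.35 in exposed against 11.66 to 12.17 in unexposed homozygous testes, 9.05 to 10.55 against 11.65 to 12.77 in heterozygous ones, and 9.25 to 10.29 against 9.69 to 11.26 in wild type ones. With PTU, 9 of the 9 fell in homozygous, 7 in heterozygous and 0 in wild type testes. Their part in the Gapdhs result was not tested. Over the 17 arrays the genes most like Gapdhs were 1700009N14Rik (r = 0.998), 1700013G24Rik (0.996) and Irgc1 (0.996).

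Pgk2 read 10.24 and 7.64 in exposed homozygous testes, against 12.13, 12.14 and 12.30 in unexposed homozygous testes. It lay between 11.28 and 11.87 in exposed against 12.04 and 12.48 in unexposed heterozygous testes, and between 11.46 and 11.95 in exposed against 11.65 and 11.83 in unexposed wild type testes. The 2 exposed homozygous arrays lay far apart, both below all others. The fall there was -3.25 ± 0.47 (adjusted p = 2.07e-05), or -4.55 without exposed array 1 and -1.95 without exposed array 2. In heterozygous testes the difference of -0.66 did not pass with all arrays (adjusted p = 0.302). It did without the exposed homozygous arrays (adjusted p = 0.00816), when the spread within groups was estimated from the other 15 arrays. Its closest genes over the 17 arrays were Tex47 (r = 0.997), D6Ertd474e (0.996) and Zpbp (0.996).

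Ldhc and Slc2a3 were close to the top of the array's range of 2.81 to 15.1. Ldhc read 14.34 and 13.63 in exposed homozygous testes, against 14.37, 14.69 and 14.69 in unexposed ones, and between 14.55 and 14.75 in every other array. Its fall of -0.59 ± 0.15 (adjusted p = 0.00242) was lost without exposed array 2 (-0.24, adjusted p = 0.084). By its second probe set the PTU effect averaged over genotypes did not pass (-0.14, adjusted p = 0.106). Slc2a3 read 13.81 and 13.32 in exposed homozygous testes, against 14.10, 14.39 and 14.40 in unexposed ones, a fall of -0.73 ± 0.12 (adjusted p = 8.97e-05). A dimmer probe set of Slc2a3 showed larger differences. It read 10.86 and 8.53 in exposed homozygous testes, against 10.70, 12.21 and 11.24 in unexposed homozygous testes. Exposed wild type testes had 12.24, 12.43 and 12.15. By that probe set the exposed homozygous testes were below exposed wild type by -2.58, against -0.67 by the brightest probe set. In unexposed mice the brightest averaged 14.29 in homozygous and 14.26 in wild type testes. The dimmer probe sets averaged 11.38, 10.35 and 13.63 in unexposed homozygous testes, against 12.25, 11.54 and 13.55 in wild type ones, in the same order. The arrays of the groups overlapped for each.

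Ldha read 12.73 and 12.02 in exposed homozygous testes, against 13.19, 13.43 and 13.38 in unexposed homozygous testes, and between 13.25 and 13.54 in all heterozygous and wild type arrays. The fall was -0.96 ± 0.14 (adjusted p = 3.04e-05). Pgk1 moved the other way. It read 10.50 and 10.56 in exposed homozygous testes, against 9.72, 9.76 and 9.76 in unexposed ones (0.78 ± 0.11, adjusted p = 1.22e-05), and no other array was above 10.13. In wild type testes the PTU differences were -0.04 for Ldha (95% interval -0.32 to 0.23) and -0.03 for Pgk1 (-0.23 to 0.18). The genes most like Ldha over the 17 arrays were Dnaaf1 (r = 0.995), Pom121l2 (0.993) and Kif9 (0.992), and those most like Pgk1 were H2-D1 (0.969), Hprt (0.968) and Stx4a (0.965).

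Slc16a1 was the member that PTU raised in both mutant genotypes at day 25. It read 11.52 and 11.56 in exposed homozygous testes, against 10.46, 10.37 and 10.44 in unexposed ones (1.12 ± 0.13, adjusted p = 2.16e-06). Heterozygous testes had 10.84, 10.90 and 10.80 with PTU, against 10.58, 10.09 and 10.14 without (0.58 ± 0.11, adjusted p = 0.00505). Wild type testes had 10.92, 10.95 and 10.95 with PTU, against 10.80, 10.71 and 11.02 without (0.10 ± 0.11, adjusted p = 0.975). In unexposed mice it was below wild type in homozygous (-0.42 ± 0.11, adjusted p = 0.0276) and in heterozygous testes (-0.57 ± 0.11, adjusted p = 0.00425). The exposed heterozygous arrays lay within the range of the unexposed wild type ones. The difference between unexposed homozygous and wild type testes was lost without any 1 of 5 of the 6 arrays compared (adjusted p = 0.0562 to 0.138). The heterozygous rise with PTU was of the same size without the exposed homozygous arrays (adjusted p = 0.00356) and close to it without all arrays with Spink8 above 7 (0.55, adjusted p = 0.0236). Of 13 Sertoli markers 4 rose with PTU in heterozygous testes, where the mean of the list was 9.60 to 9.78 in exposed against 9.35 to 9.54 in unexposed testes, and their part in the Slc16a1 result was not tested.

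Emb read 10.68 and 10.30 in exposed homozygous testes, against 9.53, 9.67 and 9.32 in unexposed ones, a rise of 0.98 ± 0.13 (adjusted p = 8.11e-06) at day 25. Wild type testes had 9.89, 9.89 and 9.82 with PTU, against 10.01, 9.76 and 9.92 without (-0.03, 95% interval -0.27 to 0.22). The second probe set gave a smaller rise in homozygous testes (0.63). Unexposed homozygous testes had less Emb than wild type (-0.39 ± 0.11, adjusted p = 0.0396), a call lost without any 1 of 7 arrays (adjusted p = 0.0509 to 0.156). Bsg was 12.38, 12.36 and 12.38 in unexposed homozygous testes, against 12.99, 12.93 and 13.06 in unexposed wild type testes (-0.62 ± 0.09, adjusted p = 0.00304). Its rise with PTU in homozygous testes was small (0.23 ± 0.10, adjusted p = 0.049) and was lost in 13 of the 17 fits that each left out an array. Slc2a1 read 8.05 and 8.93 in exposed homozygous testes, against 7.67, 7.15 and 7.38 in unexposed homozygous testes (1.09 ± 0.23, adjusted p = 7.07e-04). Against exposed wild type testes the homozygous ones were higher by 0.89 ± 0.23 (adjusted p = 0.0042), which did not pass without exposed homozygous array 2 (0.45, adjusted p = 0.134) or by another of its probe sets (0.15, adjusted p = 0.279).

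**Figure D4:**
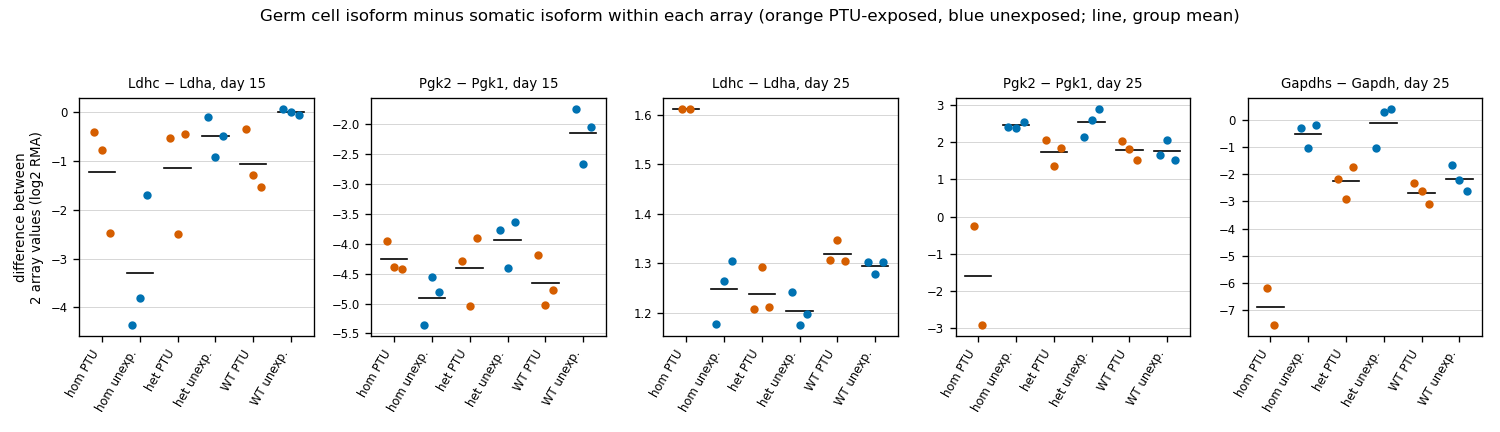
Germ cell isoform minus somatic isoform within each array (log2 RMA difference, y axis, a separate scale per panel) for the 6 groups (x axis) at each age, with PTU-exposed arrays in orange, unexposed ones in blue and a line at the group mean. At day 25 the exposed homozygous arrays are lowest for Pgk2 minus Pgk1 (-0.26 and -2.92) and Gapdhs minus Gapdh (-6.19 and -7.56) and highest for Ldhc minus Ldha (1.61 and 1.61). Ldhc was close to the top of the array's range, so the last difference does not show which of the pair fell more.

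At day 25 the differences within the Pgk and Gapdh pairs were lower in exposed than in unexposed homozygous testes. Pgk2 minus Pgk1 was -0.26 and -2.92 in exposed homozygous testes, against 2.41, 2.38 and 2.55 in unexposed homozygous testes. Gapdhs minus Gapdh was -6.19 and -7.56 in exposed homozygous testes, against -0.29, -1.04 and -0.19 in unexposed ones. The somatic partner Gapdh is read here by the brightest of its control probe sets on the array. It averaged 12.93 in exposed and 11.89 in unexposed homozygous testes, so part of the change lay in the partner. In heterozygous testes Gapdhs minus Gapdh averaged -2.27 ± 0.60 with PTU and -0.11 ± 0.79 without (SD, n = 3 each). Ldhc minus Ldha was 1.61 on both exposed homozygous arrays, against 1.18 to 1.30 in unexposed homozygous arrays. Since Ldhc read close to the top of the array's range, this difference does not show which of the pair fell more. In wild type testes the 3 differences averaged 1.78 ± 0.26, -2.69 ± 0.39 and 1.32 ± 0.02 with PTU, and 1.74 ± 0.28, -2.16 ± 0.49 and 1.30 ± 0.01 without (Pgk, Gapdh and Ldh pairs in that order; SD, n = 3 each).

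Beside the homozygous results of day 25 stand other lists. Their counts are read against 38.4% of all genes higher and 32.8% lower with PTU there. With PTU, 11 of 12 pachytene markers fell, the mean of the list being 10.01 and 11.30 in exposed against 12.30 to 12.48 in unexposed homozygous testes. All 8 tested spermatogonial markers rose, the mean being 9.17 and 9.65 against 8.16 to 8.25. Of 13 Sertoli markers 7 rose and 4 fell. Of 4 peritubular markers 3 rose, the mean being 9.94 and 9.996 against 8.83 to 9.13. Fat markers averaged 7.51 and 8.67 in exposed against 5.35 to 5.63 in unexposed homozygous testes. For wild type testes they averaged 6.50 to 10.15 with PTU, against 5.02 to 5.30 without. For heterozygous testes they averaged 5.24 to 7.47 with PTU, against 5.21 to 7.53 without. Of 5 Leydig markers 2 fell in homozygous testes, the mean being 7.63 and 7.89 against 9.29 to 10.10. Of 8 macrophage markers 4 fell, the mean being 7.68 and 7.80 against 8.01 to 8.41. The part of these cells and tissues in the members' results was not tested. PTU averaged over wild type and heterozygous mice alone, without the exposed homozygous arrays, changed 2 of the 10 genes (17.5% of all genes), Slc16a1 (0.34, adjusted p = 0.0139) and Gapdhs (-1.20, adjusted p = 0.00948), in place of 9. Without all arrays with Spink8 above 7 it changed 0 of them (0.166%), with Slc16a1 at 0.32 (adjusted p = 0.086) and Gapdhs at -1.0 (adjusted p = 0.0681).

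In the wider pathway at day 25, counts are read against 38.4% of all genes higher and 32.8% lower with PTU in homozygous testes, and 11.5% higher and 7.20% lower in heterozygous ones. Of the lists, 9 of 11 germ cell isoforms of energy metabolism fell and 0 rose with PTU in homozygous testes (median -0.97 against 0.02 over all genes). The aldolases Aldoart1 (-4.87 ± 0.39, adjusted p = 1.97e-07) and Aldoart2 (-4.73 ± 0.44, adjusted p = 5.03e-07) fell most among those named by smallest p, with Ak7 at -1.72 ± 0.16 (adjusted p = 4.04e-07). In heterozygous testes 3 of the 11 fell, with Aldoart1 at -1.27 ± 0.35 (adjusted p = 0.0214) and Aldoart2 at -1.41 ± 0.39 (adjusted p = 0.024). Of 17 glycolysis enzymes listed as somatic, 8 rose and 5 fell in homozygous testes, a share called close to the 71.2% of all genes. The hexokinase Hk1 fell (-2.66 ± 0.22, adjusted p = 2.21e-07), as it did in heterozygous testes (-0.88 ± 0.19, adjusted p = 0.00813), while the lactate dehydrogenase Ldhb rose (1.04 ± 0.12, adjusted p = 2.25e-06). Of 12 other carriers, 5 rose and 6 fell in homozygous testes, with Slc16a7 at -3.15 ± 0.33 (adjusted p = 1.17e-06) and the mitochondrial pyruvate carrier Mpc1 at 1.00 ± 0.11 (adjusted p = 1.57e-06). Of 5 regulators 4 rose and 1 fell. Hif1a, a transcription factor of the response to low oxygen, rose by 1.78 ± 0.14 in homozygous (adjusted p = 2.15e-07) and by 0.57 ± 0.13 in heterozygous testes (adjusted p = 0.00985). Txnip, which restrains glucose uptake, rose by 1.61 ± 0.17 in homozygous testes (adjusted p = 1.20e-06).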

How the data were processed

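RNA of whole testis was extracted with TriReagent and labelled with biotin, per the labels' protocols. The authors deposited log2 values from RMA, per the submitters' processing notes, and no version of RMA is stated in these notes. No further normalization was applied. The members and gene lists were chosen with earlier results of these data known.

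Probe sets with 1 symbol were kept, and the brightest stood for its gene. At day 15, of 35556 probe sets 21789 had 1 symbol, 1621 several and 12146 none, and at day 25, of 45101, 34958, 932 and 9211. A gene was tested if at least 2 arrays exceeded the 25th percentile of its age, which was 5.56 at day 15 (16710 genes passed) and 4.76 at day 25 (16305 genes passed). Each age was fitted with limma 3.58.1 in R 4.3.3 on 6 group means, with Benjamini-Hochberg adjustment over all genes tested. The fit was tested on simulated data. The number of arrays limits precision. List means average the listed genes within an array.

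All 10 members are named, with up to 4 list genes of smallest p per list and comparison, and the 3 genes of highest Pearson r with a member. The labels do not say whether arrays with the same sample number belong together. Correlations between arrays of different numbers were not computed, so pairing is not shown. The rule used was that every same-number correlation of residuals in a comparison exceeded 0.1. This was so for PTU in heterozygous (0.391 to 0.444), homozygous minus wild type in exposed (0.141 to 0.557) and heterozygous minus wild type in unexposed mice (0.181 to 0.374) at day 15. At day 25 it held for the PTU effect of wild type mice (0.233 to 0.396). With the numbers as a block, 4.49% in place of 0% of all genes were called between exposed homozygous and wild type testes, and 7.80% in place of 3.95% between unexposed heterozygous and wild type testes, with no change among the 10 members. No columns were left unused.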

Additional observations from a re-analysis of the deposited data

Results flagged for a closer look

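At day 15 the interaction term of the fit passed for 6 of the 10 genes, where 16.4% of all genes tested did. By this term the PTU effect differed between homozygous and wild type mice. The difference of effects (homozygous minus wild type, log2) was 4.62 for Ldhc, 2.85 for Slc2a3, 2.59 for Pgk2 and 1.49 for Ldha, which read lower with PTU in wild type, and -0.68 for Slc2a1 and -0.57 for Pgk1. At day 25 it differed for all 10 genes, where 59.4% of all genes tested did. The values were -4.73 for Gapdhs, -3.26 for Pgk2, -0.92 for Ldha, -0.70 for Slc2a3 and -0.58 for Ldhc, and 1.12 for Slc2a1, 1.02 for Slc16a1, 1.01 for Emb, 0.81 for Pgk1 and 0.39 for Bsg. The day 25 values rest on the 2 exposed homozygous arrays with epididymal transcripts. Without array 2 of that group, the values were -0.22 for Ldhc (adjusted p = 0.204) and 0.68 for Slc2a1 (adjusted p = 0.0613). Those of Pgk2 were -1.96 without array 2 and -4.56 without array 1, and those of Gapdhs were -3.99 and -5.46. At day 15 the value of Ldhc was 5.38 without exposed and 5.30 without unexposed homozygous array 3. Pgk2 read below the filter on low values in all 3 unexposed homozygous arrays of day 15 (mean 5.13). A further fall with PTU could therefore not be read there. Leaving out arrays with Spink8 above 7 left 1 unexposed wild type array at day 15. The values were then 2.89 for Slc2a3, 4.59 for Ldhc and -0.64 for Pgk1, with no spread within that group.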

How the results depend on the processing

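Of the 160 differences of single members, 74 passed the test. Under 4252 recalculations no called value changed sign, 140 calls were lost and 66 gained, and 39 of the 74 calls were kept in every one. The number of members called moved by more than 1.5 times as follows. For PTU in heterozygous testes at day 15 it was 0 in place of 1 with every probe set tested on its own or within the first or the second array set, and 0 to 1 with 1 array left out. For PTU in homozygous testes it was 0 in place of 3 with only the groups compared, without arrays with Spink8 above 7 or within either array set, and 0 to 4 with 1 array left out. Without arrays with Spink8 above 7, PTU in wild type gave 3 in place of 6, the interaction 3 in place of 6, and heterozygous minus wild type 1 in place of 2. That last comparison gave 5 with only the groups compared or with array weights, and 0 in the first array set. Homozygous minus wild type in exposed mice gave 1 in place of 0 with array weights and 0 to 3 with 1 array left out. At day 25, PTU in heterozygous testes gave 4 in place of 2 without the exposed homozygous arrays, and 2 to 4 with 1 array left out. PTU averaged gave 2 in place of 9 without those arrays and 0 without arrays with Spink8 above 7. Homozygous minus wild type in unexposed mice gave 5 in place of 3 with array weights or without arrays with Spink8 above 7, and 1 to 4 with 1 array left out. Heterozygous minus wild type gave 4 in place of 2 with only the groups compared or without arrays with Spink8 above 7, 5 without the exposed homozygous arrays, and 1 to 5 with 1 array left out. Fewer arrays enter these subsets; otherwise the cause was not tested.

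Outside the comparisons meeting the rule on sample numbers, the replicate block gave 6 in place of 4 members for PTU averaged at day 15. The block added Slc2a3 (adjusted p = 0.043) and Slc16a1 (0.0463). For PTU in homozygous testes at day 25 it gave 9 in place of 10, losing Bsg (adjusted p = 0.0916). It changed no other call among the members. The array sets at day 15, which split the arrays by unnamed probe sets with a mean above 9, and the day 25 fits without the exposed homozygous arrays or without arrays with Spink8 above 7 were chosen after seeing the data. Spink8 at day 15 was known from earlier results. The second array set held no wild type arrays.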
